A study of Mus musculus with 8 samples.

Results

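The genes described here handle zinc and citrate, the metal and the metabolite for which the prostate is best known. They were chosen as a fixed set of 33 genes: 12 ZIP zinc importers (*Slc39a* genes), 9 ZnT zinc exporters (*Slc30a* genes), 3 metallothioneins with their regulator *Mtf1*, and 8 genes of citrate metabolism and transport. All 33 were measured, among 18193 genes that had a probe set of their own, and they had 63 probe sets in all, from 1 to 6 for each gene. RNA of whole prostate was measured on 8 genome-wide mouse arrays (Affymetrix), each from 1 mouse. The knockout group was 4 mice that lacked *Olfm4* (*Olfm4*-/-) and the comparison group was 4 wild-type mice (*Olfm4*+/+). All mice were 3 months old and shared a mixed background, in equal parts National Institutes of Health Black Swiss and 129/SV. The line was kept by crossing *Olfm4*+/- animals, and the deletion was not limited to the prostate. The array days were 2, each with 2 arrays of either genotype.

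Zinc enters the cytosol through ZIP proteins and leaves it, to the outside or into vesicles, through ZnT proteins. Inside the cell it is held by metallothioneins, and the transcription factor MTF1 senses free zinc and switches on metallothionein genes and *Slc30a1*. Prostate epithelium is known to accumulate zinc, and to pass citrate into the prostatic fluid rather than oxidise it.

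MTF1 binds metal response elements, whose core is read here as TGCACNC or TGCGCNC on either strand, with overlapping matches counted. The promoters of the metallothionein genes and of *Slc30a1* are shown because *Mt1*, *Mt2* and *Slc30a1* are textbook targets of the zinc sensor, and *Mt3*, which is not, is their neighbour in the same family. The sequences were taken from RefSeq on build GRCm38.p6, as the 250 bases before each annotated start, with each match to the core in capitals.
*Mt1*, chr8:94178839-94179088, + strand: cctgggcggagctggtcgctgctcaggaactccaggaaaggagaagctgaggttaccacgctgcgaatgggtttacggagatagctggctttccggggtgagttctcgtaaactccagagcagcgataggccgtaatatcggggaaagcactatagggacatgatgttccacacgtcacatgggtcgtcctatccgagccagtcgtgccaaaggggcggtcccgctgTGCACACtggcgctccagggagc
*Mt2*, chr8:94172368-94172617, + strand: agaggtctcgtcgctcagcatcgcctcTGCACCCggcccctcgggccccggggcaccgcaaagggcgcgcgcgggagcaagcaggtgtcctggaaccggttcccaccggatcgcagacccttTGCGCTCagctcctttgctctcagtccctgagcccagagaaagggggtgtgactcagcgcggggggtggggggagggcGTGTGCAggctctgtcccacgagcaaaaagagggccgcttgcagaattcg
*Mt3*, chr8:94152357-94152606, + strand: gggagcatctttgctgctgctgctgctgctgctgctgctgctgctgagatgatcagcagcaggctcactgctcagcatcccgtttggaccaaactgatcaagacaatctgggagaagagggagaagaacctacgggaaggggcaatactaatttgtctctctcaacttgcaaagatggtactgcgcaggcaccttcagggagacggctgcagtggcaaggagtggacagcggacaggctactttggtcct
*Slc30a1*, chr1:191906531-191906780, + strand: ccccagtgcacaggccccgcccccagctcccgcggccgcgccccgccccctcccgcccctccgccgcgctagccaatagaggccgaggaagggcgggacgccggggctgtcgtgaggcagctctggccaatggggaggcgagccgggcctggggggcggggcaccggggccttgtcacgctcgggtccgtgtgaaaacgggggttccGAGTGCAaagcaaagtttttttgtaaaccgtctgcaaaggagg
Counted over 300 bases, with the 50 bases after the start included, *Mt2* had 4 matches, *Mt1* 3, *Slc30a1* 2 and *Mt3* 1. Of the 3 matches of *Mt1*, 2 lie just past the annotated start, at chr8:94179091-94179115 (TGCACTCcgcccgaaaagTGCGCTC). At least 1 match was present in 25.7% of all 32851 promoter windows of this length, and at least 3 in 1.97%. The 38 windows of the genes described here, which covered 31 of the 33, held at least 1 match in 42.1% of cases (16 windows). Among them, the windows of *Slc30a10* and *Slc30a4* had 3 matches, as many as *Mt1*, and that of *Slc30a2* had 2, as many as *Slc30a1*. The counts depend on the annotated start, and bases outside these windows were not searched. Where transcription starts in the prostate was not measured. A match is a run of letters, and binding was not measured.

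The arrays carried the genotype that their labels gave. *Olfm4* had log2 values between 3.00 and 3.25 on the knockout arrays and between 10.23 and 10.74 on the wild-type arrays. Array medians ran from 6.03 to 6.09. Of the fixed marker lists, those of luminal epithelium (mean log2 value 13.12 to 13.47) and smooth muscle (13.10 to 13.50) were high on every array. Seminal vesicle markers, 6 of 7 listed, had a mean log2 value of 13.81 on knockout array 1 and 14.15 on wild-type array 1, against 7.88 to 10.04 on the other 6 arrays. Adipose markers, 3 of 5 listed, also stood apart on these arrays, with means of 9.27 and 10.30 against 6.42 to 7.95. Nerve markers, 3 of 5 listed, were highest on them too, with means of 10.16 and 10.06 against 7.76 to 9.77. Leaving out both arrays moved the log2 difference (the log2 fold change, knockout minus wild type) by more than 0.1 for 10 of the 33 genes, which are given with and without them. In tissue RNA, fewer cells of a type and less RNA per cell cannot be told apart.

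With p adjusted over the 45037 probe sets tested, limma called none of the 63 below 0.05, and it called 0.111% of the whole array. At an unadjusted p below 0.05, 13 of the 63 were reached (20.6%), against 12.8% of all probe sets, and they stood for 11 of the 33 genes. Probe sets with a mean log2 value under 5 were 10 of the 63 and 16171 of all 45037, so these shares come from unlike sets. Each gene was then read at its brightest probe set, the one with the highest mean over the 8 arrays. There 5 of 33 genes (15.2%) had an unadjusted p below 0.05, against 14.8% of all genes. Of the 33 genes, 3 had a higher mean in knockout prostate with such a p (*Slc39a1*, *Slc39a5* and *Idh1*), against 6.27% of all genes. There were 2 with a lower mean (*Slc39a8* and *Idh2*), against 8.49% of all genes. Every knockout array lay above every wild-type array for the same 3 genes with a higher mean, where 4.49% of all genes did so. For *Idh2* every knockout array lay below, as for 6.29% of all genes. The median log2 difference was -0.035 over the 33 genes and -0.014 over all probe sets. Leaving out single arrays moved the number of genes with such a p, 5 on all arrays, to 1 (wild-type array 3), 2 (array 2 of either genotype) and 3 (knockout array 4). For 25 of the 33 genes the 95% confidence interval of the log2 difference lay within 0.5 in either direction.

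**Figure D1:**
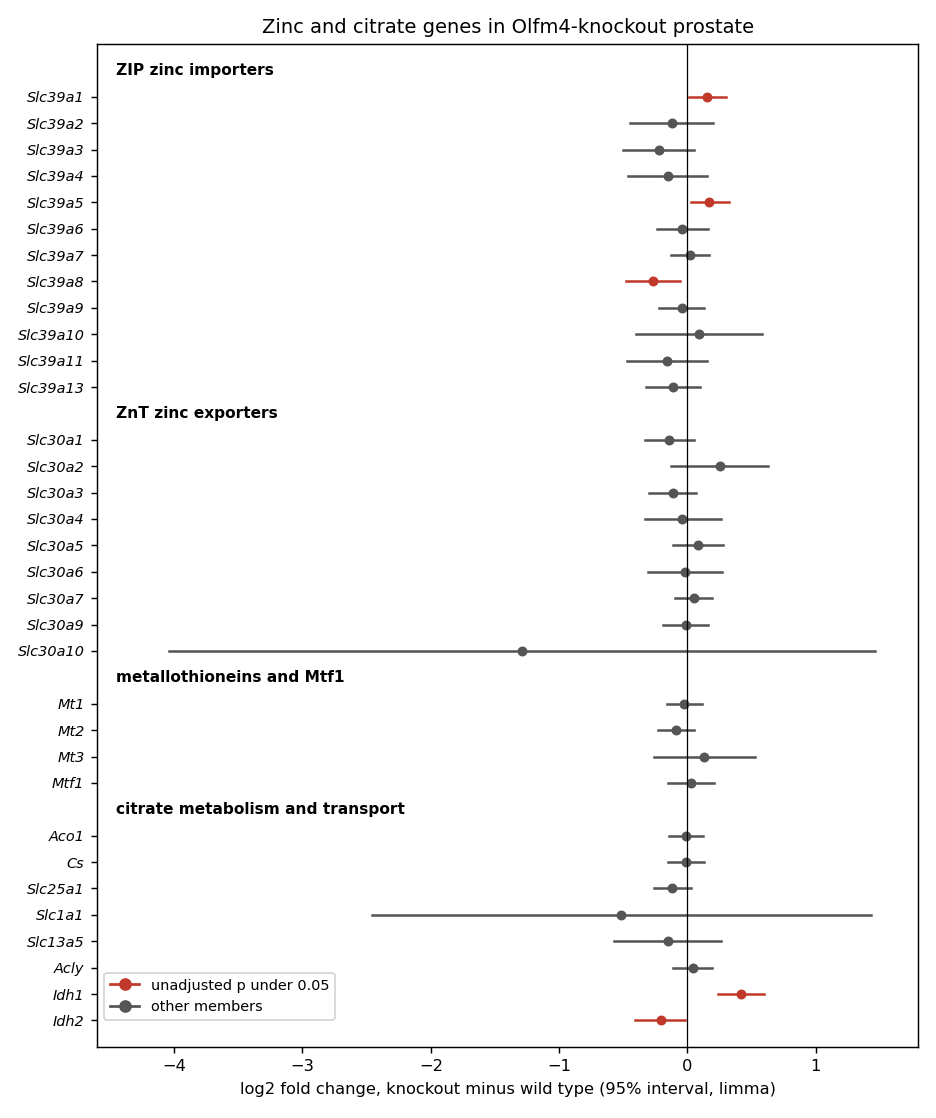
Log2 fold change (knockout minus wild type, horizontal axis) of the 33 zinc and citrate genes at the brightest probe set, with lines for the 95% confidence interval from limma and red for the 5 genes at an unadjusted p below 0.05. Most points lie close to 0, and the widest lines are those of *Slc30a10* (-4.04 to 1.46) and *Slc1a1* (-2.46 to 1.43).

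Among the ZIP importers, the knockout mean was the higher one for 4 of 12 and the lower one for 8, limma called none, and the median log2 difference was -0.077. *Slc39a1* encodes ZIP1, the importer best known for zinc uptake by prostate epithelium. Its log2 values were 12.36, 12.34, 12.31 and 12.33 on knockout arrays 1 to 4, and 12.24, 12.24, 12.14 and 12.11 on wild-type arrays 1 to 4. The genotypes did not overlap, and the knockout arrays differed from each other by less than the wild-type arrays did. Its log2 difference was 0.15 (standard error 0.061, limma unadjusted p = 0.0385, adjusted p = 0.363), a ratio of 1.11.

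*Slc39a8* encodes ZIP8, an importer of zinc and manganese. Log2 values of *Slc39a8* were 11.84, 12.06, 11.81 and 12.03 in knockout and 12.04, 12.23, 12.35 and 12.20 in wild-type prostate. Wild-type array 1 lay just below the highest knockout array, so the genotypes overlapped at that array. The log2 difference was -0.27 (standard error 0.090, limma unadjusted p = 0.0199, adjusted p = 0.310). A probe set of the gene near background gave a log2 difference of -0.34 (unadjusted p = 0.0608). *Slc39a5*, whose product ZIP5 is known from gut and pancreas, had values close to background, at 5.40, 5.46, 5.36 and 5.42 in knockout and 5.16, 5.24, 5.24 and 5.30 in wild-type prostate. The groups did not overlap, and the log2 difference of *Slc39a5* was 0.17 (standard error 0.062, limma unadjusted p = 0.0261, adjusted p = 0.329).

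*Slc39a3*, the gene of the plasma membrane importer ZIP3, had log2 differences of -0.22 (unadjusted p = 0.0999) and -0.26 (unadjusted p = 0.0195, adjusted p = 0.308) at its probe sets, the second at the dimmer one. The first became -0.34 without knockout array 1 (unadjusted p = 0.00306, adjusted p = 0.204), -0.39 without replicate 1 of both genotypes (unadjusted p = 0.00268, adjusted p = 0.204) and -0.12 without knockout array 2. On the dimmer probe set the highest knockout array, 8.36, lay above the lowest wild-type array, 8.32. *Slc39a4*, the gene of the intestinal zinc importer ZIP4, gave a log2 difference of -0.15, which became -0.06 without knockout array 1 and -0.02 without replicate 1 of both genotypes. On array day 1 alone that of *Slc39a4* was 0.098 and on array day 2 alone it was -0.41, and the genotype by day term had an unadjusted p of 0.0389 and an adjusted p of 0.890 in limma.

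*Slc39a10*, the gene of the plasma membrane importer ZIP10, was among the most variable of the set between wild-type mice. Its values were 9.09, 9.15, 8.77 and 9.28 in knockout and 9.32, 8.43, 9.25 and 8.95 in wild-type prostate. Wild-type array 2 was the lowest of the 8, and the log2 difference of 0.09 had a 95% confidence interval of -0.40 to 0.58 and became 0.19 without replicate 1 of both genotypes. *Slc39a2*, the gene of ZIP2, had values of 4.89, 4.97, 5.04 and 5.24 in knockout and 5.46, 5.31, 4.95 and 4.92 in wild-type prostate, close to background. Wild-type arrays 1 and 2 lay above all knockout arrays and the other 2 among them, and the log2 difference of *Slc39a2* was -0.12 (95% confidence interval -0.45 to 0.20) on all arrays and 0.03 without replicate 1 of both genotypes.

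The importers that act on inner compartments differed little between the genotypes. *Slc39a7* encodes ZIP7, which releases zinc from the endoplasmic reticulum, and gave a log2 difference of 0.02 (95% confidence interval -0.13 to 0.17). *Slc39a9* (ZIP9, at the Golgi) and *Slc39a13* (ZIP13, known from connective tissue) had log2 differences of -0.04 and -0.11. *Slc39a6*, the gene of the plasma membrane importer ZIP6, and *Slc39a11*, that of ZIP11, had -0.04 and -0.16. Without replicate 1 of both genotypes the difference of *Slc39a11* was 0.04. At the brightest probe sets the intervals of these genes all crossed 0 on all arrays, and none reached beyond 0.5 in either direction. Dimmer probe sets of *Slc39a9* gave log2 differences of -0.32 (95% confidence interval -0.99 to 0.36) and 0.20 (95% confidence interval -0.13 to 0.52). Those of *Slc39a6* gave between -0.08 and 0.17.

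Among the ZnT exporters, the knockout mean was the higher one for 3 of 9 and the lower one for 6, and none reached an unadjusted p below 0.05 at its brightest probe set. *Slc30a1* encodes ZnT1, which exports zinc across the plasma membrane and is switched on by MTF1. Its log2 values were 10.80, 10.70, 10.67 and 10.83 in knockout and 11.00, 10.85, 10.95 and 10.74 in wild-type prostate. Wild-type array 4 lay among the knockout arrays, and the log2 difference was -0.14 (95% confidence interval -0.33 to 0.05, adjusted p = 0.537). A second probe set of *Slc30a1* gave a log2 difference of -0.24 (standard error 0.10, limma unadjusted p = 0.05).

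*Slc30a2* encodes ZnT2, which loads zinc into secretory vesicles. Its values were 12.11, 12.17, 11.39 and 11.53 in knockout and 11.42, 11.56, 11.47 and 11.75 in wild-type prostate. Knockout arrays 1 and 2, both of array day 2, lay above all the others, and knockout arrays 3 and 4, both of day 1, lay within or just below the wild-type range. The log2 difference of *Slc30a2* was 0.25 over both days, -0.13 on day 1 and 0.62 on day 2. The difference between the days was 0.75 on the log2 scale (limma, interaction term, unadjusted p = 0.0060, adjusted p = 0.890), and none of the 63 probe sets passed this test at an adjusted p below 0.05, while 4 had an unadjusted p below 0.05, against 4.9% of all probe sets.

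The exporters of the early secretory pathway had small differences over both days at their brightest probe sets. *Slc30a5* and *Slc30a6*, whose products ZnT5 and ZnT6 work as a pair, had log2 differences of 0.08 and -0.02, and *Slc30a7* (ZnT7) had 0.05. *Slc30a4* (ZnT4), another vesicle transporter, had -0.04, and *Slc30a9* (ZnT9), linked to mitochondrial zinc, had -0.01. Without replicate 1 of both genotypes *Slc30a4* had 0.09 and *Slc30a6* had -0.13. *Slc30a3*, the gene of the synaptic vesicle transporter ZnT3, had a mean log2 value of 4.68 in knockout and 4.80 in wild-type prostate, near background in both.

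*Slc30a10* encodes ZnT10, known above all as a manganese exporter, and it set knockout array 1 apart from all other arrays. Its log2 values were 3.29, 8.62, 8.21 and 9.52 on knockout arrays 1 to 4, and 9.10, 8.72, 8.96 and 8.03 on wild-type arrays 1 to 4. Knockout array 1 was near background while the other 7 arrays were not, and its difference from the lowest of them, -4.74 on the log2 scale, is therefore a lower bound in size. The second probe set of the gene gave 4.34 on knockout array 1 and 7.31 to 8.68 on the rest. The log2 difference was -1.29 on all arrays (95% confidence interval -4.04 to 1.46), 0.10 without knockout array 1 and 0.31 without replicate 1 of both genotypes. The genotype difference of *Slc30a10* thus rested on that array.

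Some lobe and tissue markers also stood apart on knockout array 1, and others did not. *Msmb*, the gene of a secreted prostate protein, had a log2 value of 11.09 on knockout array 1 and 14.09 to 14.35 on the other 7. *Spink1*, a secreted protease inhibitor gene, had 12.88 against 14.15 to 14.42, and *Upk1a*, a uroplakin gene, 8.82 against 11.70 to 12.53. The uroplakin gene *Upk1b* was instead highest on that array, at 12.39 against 11.06 to 11.74, and the mean of the 5 urothelium markers was 8.19 against 8.35 to 9.02 on the 6 arrays other than replicate 1. The list of prostate secretory products as a whole, of which 9 of 14 genes were measured, had a mean log2 value of 12.41 on knockout array 1, against 12.39 to 12.70 on the same 6. That mean included *Spinkl*, which was high with the seminal vesicle genes (11.61 against 4.78 to 6.27), and without it the mean was 12.51 on knockout array 1 and 13.33 to 13.51 on those 6. On knockout array 1, 5 of the 9 genes had their lowest value of the 8 arrays. Others lay within the range of the other 7 arrays. These were *Pbsn* (13.76 against 13.64 to 14.09), *Tgm4* (14.21 against 14.14 to 14.30) and *9530002B09Rik* (13.99 against 13.87 to 14.25). Wild-type array 1, also rich in seminal vesicle transcripts, had 14.20 for *Msmb* and 9.10 for *Slc30a10*. The part of these differences in the value of *Slc30a10* was not tested.

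**Figure D2:**
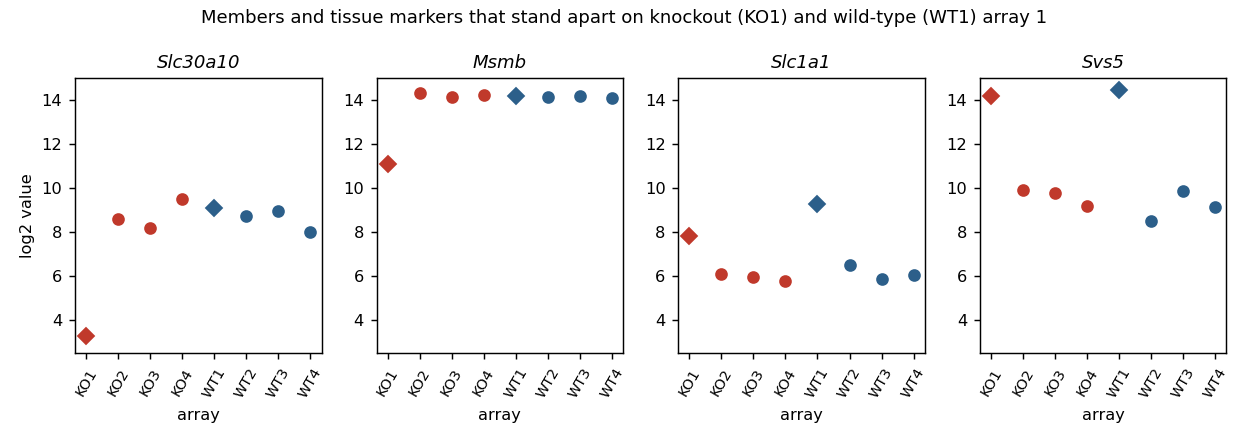
Log2 values (vertical axis) on each array of *Slc30a10* and *Slc1a1*, with *Msmb*, a secreted prostate protein gene, and *Svs5*, a seminal vesicle gene, in red for knockout and blue for wild-type arrays and with diamonds for replicate 1 of each genotype. Knockout array 1 alone is low for *Slc30a10* (3.29) and *Msmb* (11.09), and both replicate 1 arrays are high for *Slc1a1* (7.85 and 9.29) and *Svs5* (14.21 and 14.46).

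Metallothioneins, the small cysteine-rich proteins that bind zinc and copper, had high values on every array. *Mt1* had log2 values of 13.92, 14.03, 14.02 and 14.04 in knockout and 14.04, 13.99, 14.02 and 14.05 in wild-type prostate at its brightest probe set. *Mt2* had 13.60, 13.64, 13.74 and 13.76 in knockout and 13.79, 13.74, 13.80 and 13.76 in wild-type prostate. The genotypes overlapped for both genes, and knockout array 1 was the lowest of the 8 for each. The log2 differences were -0.03 for *Mt1* (95% confidence interval -0.16 to 0.11) and -0.09 for *Mt2* (95% confidence interval -0.23 to 0.05). The highest value of any probe set on an array was between 14.70 and 14.79, and whether values so close to the top of the scale still follow the amount of RNA was not tested.

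A second, dimmer probe set of *Mt1* gave a different picture. It had log2 values of 6.91, 7.64, 7.35 and 7.35 in knockout and 7.42, 8.14, 8.21 and 8.92 in wild-type prostate. Wild-type array 1 lay among the knockout arrays, and the other 3 wild-type arrays lay above all of them. The log2 difference there was -0.86 (standard error 0.31, limma unadjusted p = 0.0257, adjusted p = 0.328). *Mt3*, first known as the brain metallothionein, had 12.04, 12.00, 12.26 and 11.48 in knockout and 11.73, 11.70, 11.84 and 11.99 in wild-type prostate. Its log2 difference of 0.13 became 0.31 without knockout array 4, the lowest of the 8 (unadjusted p = 0.0152, adjusted p = 0.451), and -0.0029 without knockout array 3, the highest.

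*Mtf1*, the zinc sensor, gave a log2 difference of 0.03 (95% confidence interval -0.15 to 0.21) at its brightest probe set and between -0.17 and -0.02 at its other 4. The lowest of these came from a probe set on which every knockout array (8.68 to 8.86) lay below every wild-type array (8.90 to 9.01), with a limma unadjusted p of 0.0308 and an adjusted p of 0.344.

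Among the 8 genes of citrate metabolism and transport, the knockout mean was the higher one for 2 and the lower one for 6, with a median log2 difference of -0.063. *Idh1*, which encodes the isocitrate dehydrogenase of cytosol and peroxisomes, had the smallest p of all the 33 genes. Its log2 values were 13.15, 13.12, 12.79 and 12.95 in knockout and 12.52, 12.64, 12.57 and 12.60 in wild-type prostate. Every knockout array lay above every wild-type array. The log2 difference was 0.42 (standard error 0.076, limma unadjusted p = 7.44e-04, adjusted p = 0.152), a ratio of 1.34, so that *Idh1* did not pass over all probe sets.

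The second probe set of *Idh1* also showed no overlap, with 13.08, 12.83, 12.73 and 12.86 in knockout and 12.54, 12.66, 12.55 and 12.58 in wild-type prostate. There the log2 difference was 0.29 (standard error 0.081, limma unadjusted p = 0.00811, adjusted p = 0.263). Both probe sets carry the suffix that marks probes shared by several transcripts. On array day 1 alone the log2 difference of *Idh1* at its brightest probe set was 0.31 and on day 2 alone 0.53. Without any one array it lay between 0.38 and 0.47, and without replicate 1 of both genotypes it was 0.39. Over all alternatives its adjusted p ranged from 0.0517 to 0.839. Basal epithelial markers had a mean log2 value of 10.46 to 10.81 on knockout and 10.23 to 10.48 on wild-type arrays. Of these 7 markers, 3 were higher at an unadjusted p below 0.05, against 6.27% of all genes. Fibroblast markers had a mean of 10.39 to 10.86 on knockout and 10.22 to 10.47 on wild-type arrays, with 1 of 7 higher at such a p. The part of either list in the value of *Idh1* was not tested.

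*Idh2*, the mitochondrial counterpart, differed in the other direction. It had values of 10.53, 10.29, 10.61 and 10.44 in knockout and 10.61, 10.65, 10.76 and 10.70 in wild-type prostate. The groups did not overlap, although knockout array 3 and wild-type array 1 were nearly equal. The log2 difference was -0.21 (standard error 0.085, limma unadjusted p = 0.0377, adjusted p = 0.360), and -0.07 at a dimmer probe set.

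**Figure D3:**
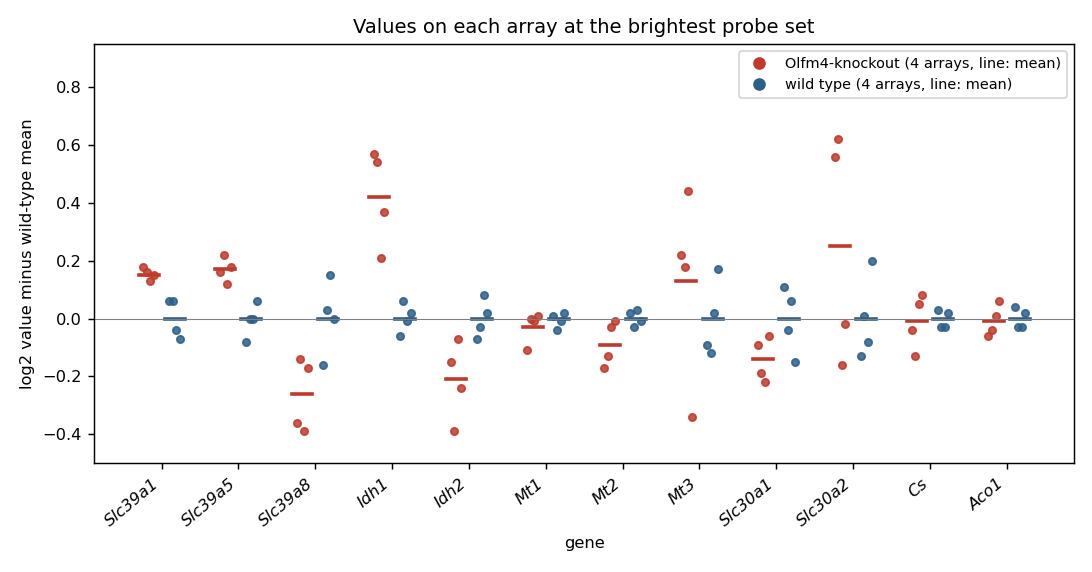
Log2 value of 12 of the genes on each array at the brightest probe set, with the gene's wild-type mean set to 0 (vertical axis), with points for the 4 knockout (red) and 4 wild-type (blue) arrays and a line at each mean. The red points of *Idh1*, *Slc39a1* and *Slc39a5* all lie above the blue ones, those of *Idh2* all lie below, and those of *Slc30a2* fall into 2 pairs.

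Citrate synthase (*Cs*), which makes citrate in mitochondria, had log2 values of 13.54, 13.45, 13.63 and 13.66 in knockout and 13.61, 13.55, 13.55 and 13.60 in wild-type prostate. The arrays of both genotypes were interleaved, and the 3 probe sets of *Cs* had log2 differences between -0.01 and 0.03. The 95% confidence interval at the brightest was -0.15 to 0.13. *Slc25a1*, the carrier that takes citrate from mitochondria to the cytosol, gave a log2 difference of -0.12 (95% confidence interval -0.26 to 0.03).

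*Aco1* encodes cytosolic aconitase, which also acts as the iron sensor IRP1, and its probe sets disagreed. The brightest gave a log2 difference of -0.01 (95% confidence interval -0.14 to 0.12). Another had 10.90, 10.96, 10.67 and 10.81 in knockout and 10.56, 10.50, 10.41 and 10.66 in wild-type prostate, with no overlap and a log2 difference of 0.30 (standard error 0.090, limma unadjusted p = 0.0107, adjusted p = 0.276). That probe set is of the kind whose probes may bind other transcripts. *Acly*, the enzyme that splits cytosolic citrate for lipid synthesis, had 0.04 at its brightest probe set and between -0.15 and 0.33 at the other 5. At 2 of them the unadjusted p was 0.0468 and 0.0460, the latter at a probe set near background.

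**Figure D4:**
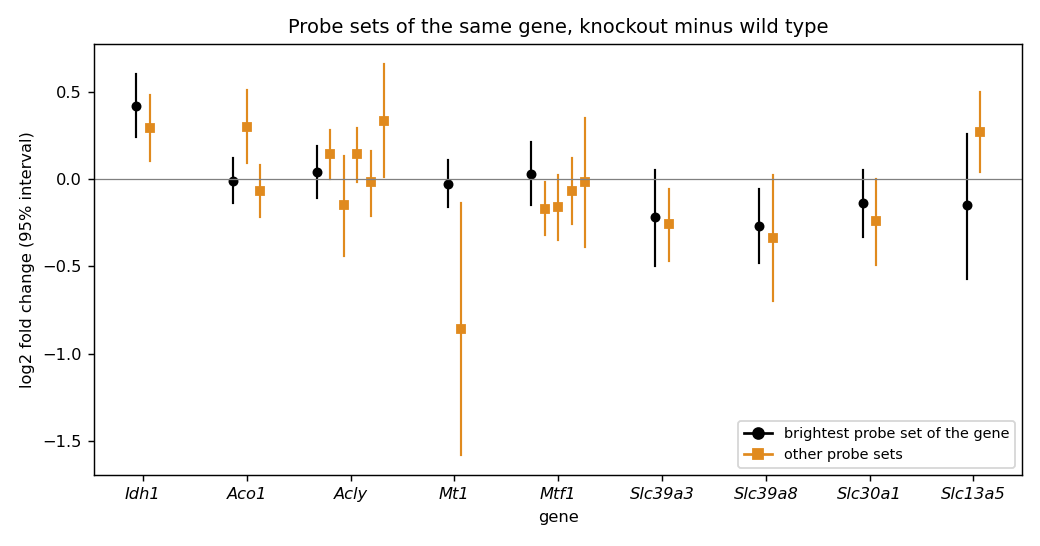
Log2 fold change (knockout minus wild type, vertical axis) at every probe set of 9 of the genes, with 95% confidence intervals from limma, ordered within a gene from bright to dim and with the brightest in black. Probe sets of *Idh1*, *Slc39a3*, *Slc39a8* and *Slc30a1* lie on the same side of 0, those of *Aco1* and *Slc13a5* lie on both sides, and those of *Mt1* differ in size (-0.03 and -0.86).

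*Slc1a1* encodes the glutamate and aspartate transporter EAAC1, and aspartate is a known carbon source for prostate citrate. It was the most variable of the set between wild-type mice, with 7.85, 6.08, 5.97 and 5.78 in knockout and 9.29, 6.51, 5.87 and 6.07 in wild-type prostate. The high arrays were knockout array 1 and wild-type array 1, those highest in seminal vesicle, adipose and nerve markers, whose part in the value was not tested. The log2 difference was -0.52 on all arrays (95% confidence interval -2.46 to 1.43), -0.15 without both of these arrays, -1.13 without knockout array 1 and 0.39 without wild-type array 1. A dimmer probe set, near background by its mean, had 5.17 and 5.97 on the same arrays and 3.95 to 4.14 on the other 6. A further probe set near background did not show this pattern, with 4.83 and 4.95 against 4.61 to 4.93. *Slc13a5*, the gene of the plasma membrane citrate importer NaCT, had 5.55, 5.21, 5.53 and 5.74 in knockout and 6.30, 5.50, 5.30 and 5.53 in wild-type prostate, with wild-type array 1 the highest. Without replicate 1 of both genotypes its log2 difference was -0.04, and on all arrays it was -0.15 at this probe set and 0.27 (limma unadjusted p = 0.0251, adjusted p = 0.325) at one near background.

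Other genes of the same pathways were read from fixed lists. Of 31 measured genes of the tricarboxylic acid cycle, its feeder reactions and citrate transport, out of 33 listed, limma called none, and 7 reached an unadjusted p below 0.05, of which 2 were higher and 5 lower in knockout mean (22.6%, against 14.8% of all genes). Subunits of succinate dehydrogenase pointed both ways. *Sdhd* had 12.30, 12.42, 12.32 and 12.38 in knockout and 12.14, 12.13, 12.00 and 12.19 in wild-type prostate, and a log2 difference of 0.24 (standard error 0.068, limma unadjusted p = 0.00812, adjusted p = 0.263), with -0.07 at its other probe set. *Sdhb* had 12.40, 12.34, 12.52 and 12.56 in knockout and 12.59, 12.67, 12.65 and 12.66 in wild-type prostate, and a log2 difference of -0.19 (unadjusted p = 0.0265). The succinyl-CoA ligase gene *Sucla2* and *Dlst*, a subunit gene of the 2-oxoglutarate dehydrogenase complex, had -0.22 (unadjusted p = 0.0204) and -0.16 (unadjusted p = 0.0350). Their other probe sets gave between -0.39 and 0.17 for *Sucla2* and between -0.44 and -0.20 for *Dlst*. *Sdhc* had -0.17 (unadjusted p = 0.0402), with -0.01 at its other probe set. Of the 31 genes, the genotypes did not overlap for *Sdhd* (higher, as for 4.49% of all genes) or for *Sdhb*, *Sucla2* and *Dlst* (lower, as for 6.29%).

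*Slc13a2*, another sodium-coupled carrier of citrate and dicarboxylates, had the same array pattern as *Slc1a1*. It had 8.05 on knockout array 1 and 7.93 on wild-type array 1, and between 4.73 and 4.96 on the other 6 arrays. Among 7 measured genes that use citrate carbon for lipid, *Acaca* (acetyl-CoA carboxylase) gave a log2 difference of -0.27 (unadjusted p = 0.0237). Its other probe set gave 0.02. *Fasn* (fatty acid synthase) had -0.18 (unadjusted p = 0.0244), and neither gene passed an adjusted p (0.320 and 0.323, limma). Among 11 other zinc-related genes, *Trpm7*, the gene of an ion channel that passes zinc and magnesium, had 0.31 (unadjusted p = 0.00962, adjusted p = 0.272), with no overlap between the genotypes and between -0.21 and 0.08 at its other probe sets. *S100a9*, a zinc-binding calprotectin gene of neutrophils, had 7.28, 5.50, 5.23 and 6.97 in knockout and 4.82, 5.07, 5.30 and 4.92 in wild-type prostate. Knockout arrays 1 and 4 carried its log2 difference of 1.22 (standard error 0.46, limma unadjusted p = 0.0318, adjusted p = 0.346), which was 0.86 when either one was left out and 0.75 without replicate 1 of both genotypes.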

How the data were processed

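RNA of whole prostate was hybridised to 8 arrays, 4 for *Olfm4*-knockout and 4 for wild-type mice, and this small number sets the precision. The authors made the deposited log2 values with the RMA algorithm (background subtraction, quantile normalization and a summary of each probe set). The sources used here do not give its version or any detection calls. The 64 control probe sets were left out. Genes were named through the platform annotation and the RefSeq table of GRCm38.p6, in which 18032 of 18193 genes were found.

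The main test was a linear model in limma 3.58.1 (R 4.3.3, functions lmFit and eBayes), with terms for genotype and array day. All tests were 2-sided, and the Benjamini-Hochberg adjustment ran over all 45037 probe sets. The methods name an analysis of variance and give no terms for it, so ANOVA on genotype alone was run as an alternative. A mean log2 value under 5 was read as near background. The fit was also run on simulated data with independent noise, a shift between array days and set genotype changes. The simulated arrays held no tissue differences like those of replicate 1, so they cannot show how the fit handles such differences. The genes and lists were chosen with earlier results of these data known. Values on each array were given for genes at an unadjusted p under 0.05, *Mt1*, *Mt2*, *Slc30a1*, *Slc39a1*, *Cs* and the 5 genes with the widest spread in wild-type prostate. Those of *Mt3*, *Slc30a2* and of dimmer probe sets were added after their values were seen. From the related lists, up to 5 genes at an unadjusted p under 0.05 were named, and *Slc13a2* was added after its values were seen. The alternatives left out the array day, blocked on the replicate number, used ANOVA or a robust fit with a trend on intensity, centred or quantile-normalized the arrays, dropped probe sets with a mean log2 value under 5, took each array day alone or the mean of a gene's probe sets, and left out each array in turn or replicate 1 of both genotypes.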

Additional observations from a re-analysis of the deposited data

Results flagged for a closer look

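Each group of 4 arrays was searched for an array far from the other 3, at the brightest probe set of each of the 33 genes. Of 66 groups, 2 held such an array, and chance gives about 1 in 20. *Slc1a1* had 7.85 on knockout array 1, with 6.08 as the nearest of the other knockout arrays. *Slc39a7* had 12.42 on wild-type array 3, with 12.48 as the nearest of the other wild-type arrays.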

How the results depend on the processing

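Over 19 alternatives, 626 values of the 33 genes were recomputed. Adjusted p stayed above 0.05 for each of them, 570 kept their sign and 56 changed it, and 12 genes never changed sign. The cause of these changes was not tested. Over all probe sets, 50 passed; this became 24 with ANOVA, 4 on either array day alone, 20 with a replicate block, 73 with an intensity trend and robust variance, 71 with no array day term, and 17 (without wild-type array 2) to 43 when 1 array was left out. Of the 33 genes, 5 had an unadjusted p under 0.05; this became 3 on either day alone and 1 (without wild-type array 3) to 6 without 1 array. With the replicate block it was 4. The labels name no pairing of mice by replicate number. Same-numbered arrays deviated together with correlations of 0.336, 0.173, 0.043 and -0.006, and differently numbered arrays with -0.338 to 0.234. These correlations did not take the array day into account and cannot decide whether the mice were paired. The median log2 difference became 0.0012 on day 1 alone and -0.00017 without replicate 1 of both genotypes.

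On day 1 alone the log2 difference was 0.098 for *Slc39a4*, 0.01 for *Slc39a6*, -0.11 for *Slc39a10*, 0.0092 for *Slc39a11*, -0.13 for *Slc30a2*, 0.14 for *Slc30a4*, 0.018 for *Slc30a6*, 0.0012 for *Slc30a9*, 0.3 for *Slc30a10*, 0.0056 for *Aco1*, 0.039 for *Cs* and -0.055 for *Acly*. On day 2 alone it was -0.077 for *Slc30a5*, -0.0088 for *Mtf1* and 0.77 for *Slc1a1*. With centred arrays it was 0.01 for *Slc30a6*, 0.017 for *Slc30a9*, 0.0036 for *Mt1* and 0.02 for *Aco1* and *Cs*. Over the mean of probe sets it was 0.021 for *Slc39a6*, -0.079 for *Slc30a7* and *Mtf1*, 0.075 for *Aco1*, 0.0048 for *Cs* and 0.061 for *Slc13a5*. With quantile normalization it was 0.0024 for *Slc30a9* and 0.0038 for *Aco1*. Without replicate 1 of both genotypes it was 0.031 for *Slc39a2*, 0.057 for *Slc39a6*, -0.014 for *Slc39a7*, 0.038 for *Slc39a11* and *Slc30a9*, 0.086 for *Slc30a4*, -0.0042 for *Slc30a7*, 0.31 for *Slc30a10* and 0.0027 for *Aco1*. When 1 array was left out it ran from -0.099 to 0.038 for *Slc39a6*, -0.0074 to 0.057 for *Slc39a7*, -0.12 to 0.23 for *Slc39a10*, -0.15 to 0.029 for *Slc30a4*, -0.13 to 0.1 for *Slc30a6*, -0.063 to 0.034 for *Slc30a9*, -2.04 to 0.096 for *Slc30a10*, -0.0029 to 0.31 for *Mt3*, -0.012 to 0.086 for *Mtf1*, -0.023 to 0.017 for *Cs*, -1.13 to 0.39 for *Slc1a1* and -0.28 to 0.029 for *Slc13a5*. Whether values near background, or those of *Mt1* and *Mt2* near the top of the scale, follow the amount of RNA was not tested.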
